A study of Drosophila melanogaster with 4 samples.

Results

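Messenger RNA levels of all genes were compared between 2 kinds of heterozygous adult male Drosophila melanogaster: carriers of the V966M allele of Ago2 and carriers of the 51B allele of Ago2, each over a TM3 balancer chromosome. The V966M heterozygote carried TM3 with the markers twi-GFP, Sb and Ser, and the 51B heterozygote carried TM3 with the markers Ser and y+. Both groups were 0 to 16 hr old and had been grown at 25 °C, and neither was a wild type. Homozygotes of both alleles, which carry no balancer in their labelled genotypes, were of the same sex, age and temperature. They were compared with each other in the same way, as the same pair of alleles in libraries that the heterozygote comparison did not use. The lesions of both alleles were not used here beyond the allele names. The genetic backgrounds of the stocks and the number of flies behind each library were not used either, since no label gives them.

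The deposited table gave each gene 1 FPKM value per genotype (fragments relative to the length of the transcript and to the mapped fragments of the library), with an interval whose level is not stated and a quantification status. Genes were taken where the status was OK in both heterozygotes and the mean of both FPKM values was at least 1, which left 11094 of 13990 genes. The status removed 617 genes and the mean removed a further 2279. Just inside that limit was CG13283, with 1.30 FPKM in the V966M heterozygote, 0.702 FPKM in the 51B heterozygote and a mean of 1.0 FPKM. Just outside was CG42535, with 0.771 FPKM in the V966M heterozygote, 1.23 FPKM in the 51B heterozygote and a mean of 0.9996 FPKM. The measure was log2((FPKM + 1)/(FPKM + 1)), V966M over 51B, minus its median over the genes analysed. This is called the centred ratio. The added 1 FPKM shrinks the fold of genes with low values. Because the median is subtracted afterwards, such genes are drawn below 0, to the lower side, rather than to 0. The median before centring was 0.26, a 1.20-fold excess in the V966M heterozygote. A gene was called higher or lower in the V966M heterozygote where the centred ratio was at least 2-fold and the deposited intervals did not overlap after the V966M interval had been divided by that median fold. Each genotype being a single value, differences have no replicate check and carry no test or p-value, and the depth is unknown.

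Argonaute proteins hold small RNAs that guide them to matching transcripts. In flies AGO2 carries the small interfering RNAs (siRNAs) of antiviral defence and of transposon and hairpin silencing. TM3 is a chromosome 3 with many inversions, which blocks recombination with its partner and so keeps a mutation in the stock. It replaces 1 copy of that chromosome in each heterozygote, and Ago2 lies on 3L, so the balancer carries the other copy of Ago2 in both. Chromosomes X, 2 and 4 come from the stocks themselves. A comparison between both heterozygotes therefore holds stock, balancer and allele together, and these cannot be told apart here.

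The compared libraries differed in scale and precision. Summed FPKM came to 645245 in the V966M heterozygote and 493829 in the 51B heterozygote. Among genes with at least 5 FPKM, the V966M heterozygote had a median interval half-width of 24.9% of the FPKM and the 51B heterozygote one of 15.6%. Listed at 0 FPKM were 502 genes in the V966M heterozygote and 421 in the 51B heterozygote.

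Most genes stood close to each other in both stocks. The centred ratio lay within 0.5 log2 unit of 0 in 81.4% of genes, with quartiles at -0.27 and 0.21 and an SD over genes of 0.41. Called higher in the V966M heterozygote were 130 genes (1.17% of those analysed), and called lower were 94 (0.847%). Together they were 2.02% of genes, and 58.0% of them were higher. Without centring the counts were 300 higher and 35 lower, which made 89.6% of the calls higher. At 4-fold or more, 13 genes were called higher and 10 lower. The intervals failed to overlap, at any fold, in 16.2% of genes, and 2.1% of genes reached 2-fold when the intervals were ignored. The called genes with a locus of their own in the table were 97 of the 130 higher and 63 of the 94 lower. The rest shared a locus with an overlapping gene, where the division of fragments between genes is uncertain.

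By this measure, genes called higher were more abundant than genes called lower. The median over genes of the mean FPKM was 18.8 among those called higher, 6.13 among those called lower and 11.5 among all genes analysed. Among genes averaging at least 100 FPKM, 3.33% were called higher and 0.476% lower. Among genes averaging from 1 to 5 FPKM, 0.761% were called higher and 1.42% lower. The measure draws genes with low values to the lower side, so this contrast depends in part on the measure. The calls were 163 higher and 165 lower at a pseudocount of 0.1 FPKM, and 76 and 17 at 5 FPKM. Of the higher genes 69 of 130 are listed under a CG or CR number in the deposited table, and of the lower genes 74 of 94. Some of these have names in RefSeq. The share of such names among all genes analysed was not computed, so nothing is read from these counts.

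**Figure D1:**
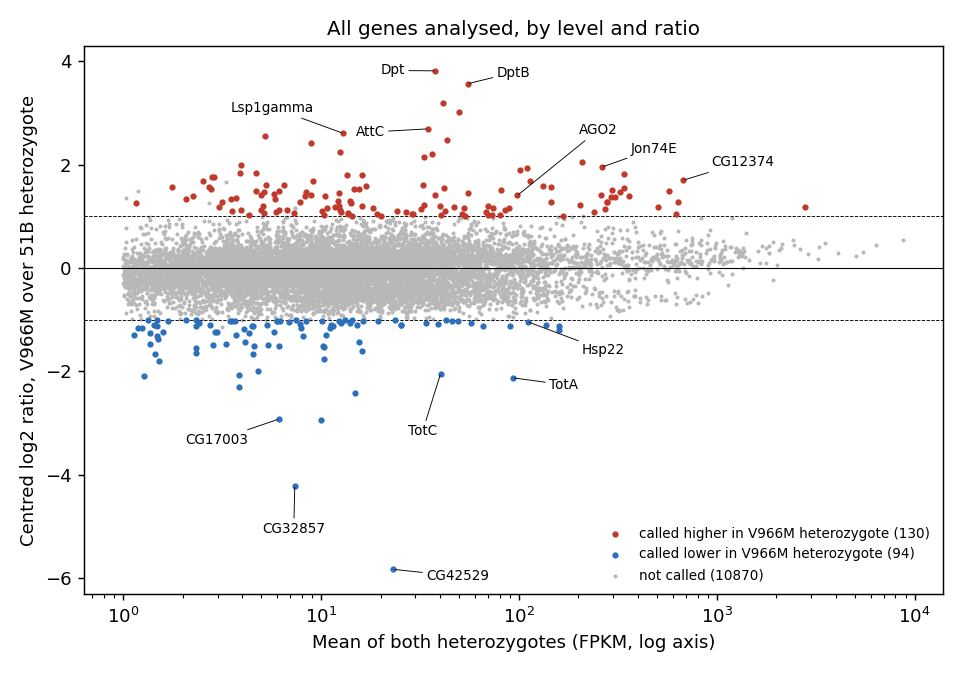
The centred log2 ratio, V966M over 51B heterozygote (vertical axis), is plotted against the mean FPKM of both heterozygotes (horizontal log axis). Each point is 1 of the 11094 genes, dashed lines mark 2-fold, and the 130 red points stand above the upper line and the 94 blue points below the lower line. Dpt and DptB are highest, and CG42529 and CG32857, which share their loci with other genes, are lowest.

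AGO2 itself differed between the heterozygotes. It lies on chromosome 3L (15547217 to 15556163, build dm3). AGO2 had 150.0 FPKM (deposited interval 111 to 189) in the V966M heterozygote and 46.5 FPKM (39.7 to 53.3) in the 51B heterozygote, a centred ratio of 1.40. In the homozygotes it had 101 FPKM with V966M and 6.33 FPKM with 51B, a centred ratio of 3.91. AGO2 shares its locus with CG7739, which had 22.8 FPKM in the V966M heterozygote and 17.0 FPKM in the 51B heterozygote and was not called. The other 6 members of the siRNA pathway list were not called between the heterozygotes. Dcr-2, which cuts long double-stranded RNA into siRNAs, had 10.6 FPKM in the V966M heterozygote and 6.78 FPKM in the 51B heterozygote, a centred ratio of 0.31. Its partner r2d2 had 8.45 FPKM in the V966M heterozygote and 5.36 FPKM in the 51B heterozygote, also 0.31. The lowest member was loqs, whose proteins partner Dicer enzymes, with 34.1 FPKM in the V966M heterozygote and 43.0 FPKM in the 51B heterozygote and a centred ratio of -0.59.

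Precursors and targets of hairpin-derived siRNAs were not called either. Of 8 listed genes 7 were analysed, with a median centred ratio of -0.51. The hairpin transcript pncr009:3L had 2.34 FPKM in the V966M heterozygote and 4.0 FPKM in the 51B heterozygote, a centred ratio of -0.85. The hairpin transcript CG4068 had 94.7 FPKM in the V966M heterozygote and 123 FPKM in the 51B heterozygote, a ratio of -0.64. mus308, a DNA polymerase gene known as a target of hairpin siRNAs, had 3.35 FPKM in the V966M heterozygote and 5.13 FPKM in the 51B heterozygote, a ratio of -0.76. Of those 7 genes 4 lie on chromosome 3, and without chromosome 3 the list's median was 0.15. The miRNA pathway list (6 genes analysed) and the piRNA pathway list (10 genes analysed) held no call, with medians of -0.07 and -0.28. Since 2.02% of all genes were called, lists this short are likely to hold none.

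Genes of the humoral immune response were well represented among the higher genes. Flies answer bacteria and fungi through the Imd and Toll pathways. Peptidoglycan recognition proteins sense the cell wall, NF-kappaB factors carry the signal, and the fat body and gut secrete antimicrobial peptides. Across the 4 lists of peptides and recognition proteins, 35 genes were analysed, of which 18 were called higher, 1 lower and 16 not called, with a median centred ratio of 1.10. Among all genes 1.17% were called higher.

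The diptericins, attacins and drosocin, peptides against Gram-negative bacteria whose genes the Imd pathway induces, were all higher. Of 7 listed genes, 6 were analysed and 6 were called higher, with a median centred ratio of 2.05. Dpt, a diptericin, lies on 2R (14753270 to 14753765). It had 72.2 FPKM (52.8 to 91.6) in the V966M heterozygote and 3.33 FPKM (2.11 to 4.55) in the 51B heterozygote, a centred ratio of 3.81, the largest of all genes analysed. Its neighbour DptB had 104 FPKM (76.4 to 131) in the V966M heterozygote and 6.36 FPKM (4.39 to 8.34) in the 51B heterozygote, a ratio of 3.56. In both genes the intervals stood far apart. AttC had 62.4 FPKM in the V966M heterozygote and 7.16 FPKM in the 51B heterozygote, a ratio of 2.69. Dro, the drosocin gene, had 58.1 FPKM in the V966M heterozygote and 17.5 FPKM in the 51B heterozygote, a ratio of 1.41. AttA and AttB, whose coding sequences are near copies of each other, had centred ratios of 1.19 and 1.18. AttD fell under the limit on low values, with 0.604 FPKM in the V966M heterozygote and 0.157 FPKM in the 51B heterozygote.

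Among cecropins, defensin and metchnikowin, 5 of 6 genes were analysed and 3 were called higher. CecA1 had 21.5 FPKM (14.4 to 28.5) in the V966M heterozygote and 6.60 FPKM (4.29 to 8.90) in the 51B heterozygote, a centred ratio of 1.30. CecA2 had 6.92 FPKM in the V966M heterozygote and 0.853 FPKM in the 51B heterozygote, a ratio of 1.83. Mtk, the antifungal metchnikowin, had 15.0 FPKM in the V966M heterozygote and 3.16 FPKM in the 51B heterozygote, a ratio of 1.68. CecC and Def had ratios of 0.99 and 0.67 and were not called.

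The list of drosomycin relatives and immune-induced peptides, many of them dependent on Toll, was mixed. Of 13 genes analysed, 5 were called higher, 1 lower and 7 not called. The most abundant of the called genes was IM4, with 550 FPKM (409 to 691) in the V966M heterozygote and 130 FPKM (109.7 to 149.8) in the 51B heterozygote, a centred ratio of 1.81. IM1, a short bomanin, had 182 FPKM in the V966M heterozygote and 46.7 FPKM in the 51B heterozygote, a ratio of 1.68. The drosomycin-like dro2 had 10.7 FPKM in the V966M heterozygote and 2.21 FPKM in the 51B heterozygote, a ratio of 1.60. Its relative dro4 stood on the other side. dro4 had 113 FPKM (85.3 to 140) in the V966M heterozygote and 206 FPKM (175 to 237) in the 51B heterozygote, a ratio of -1.13, and was not called without centring. Drosomycin itself, Drs, had 277 FPKM in the V966M heterozygote and 219 FPKM in the 51B heterozygote, with overlapping intervals and a ratio of 0.07.

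Of 11 peptidoglycan recognition genes analysed 4 were called higher, PGRP-SC1a, PGRP-SC1b, PGRP-SB1 and PGRP-SD, and the list's median centred ratio was 0.36. PGRP-SC1a and PGRP-SC1b encode amidases that degrade peptidoglycan. PGRP-SC1a had 62.4 FPKM in the V966M heterozygote and 10.5 FPKM in the 51B heterozygote, a ratio of 2.20, and PGRP-SC1b had 56.6 FPKM in the V966M heterozygote and 9.78 FPKM in the 51B heterozygote, a ratio of 2.15. PGRP-SB1, another amidase gene, had 227 FPKM in the V966M heterozygote and 63.0 FPKM in the 51B heterozygote, a ratio of 1.57. PGRP-SD, a secreted recognition protein that shares its locus with 9 other genes, had 23.4 FPKM in the V966M heterozygote and 6.08 FPKM in the 51B heterozygote, a ratio of 1.52. The secreted members PGRP-SC2 and PGRP-SA were not called, with ratios of 0.55 and 0.36. PGRP-LC, the transmembrane receptor of the Imd pathway, had 20.1 FPKM in the V966M heterozygote and 15.0 FPKM in the 51B heterozygote, a ratio of 0.13. Its cytosolic relative PGRP-LE had a ratio of 0.04. PGRP-LB had a status other than OK in the V966M heterozygote and was not analysed.

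Genes of the Toll and Imd signalling chains themselves were mostly close between the stocks. Of 19 analysed, 1 was called higher, against 1.17% of all genes, with a median centred ratio of 0.28. The called gene was pirk, an inhibitor of the Imd receptor complex, with 9.33 FPKM in the V966M heterozygote and 2.95 FPKM in the 51B heterozygote and a ratio of 1.12. SPE, the protease that activates the Toll ligand, had 236 FPKM in the V966M heterozygote and 101 FPKM in the 51B heterozygote, a ratio of 0.96, and missed the call by its fold. The NF-kappaB factors Rel and Dif had ratios of 0.46 and 0.55.

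The Turandot genes, which encode secreted peptides induced by bacteria, heat and other stress, went the other way. Of 8 listed genes 4 passed the limit on low values, and those 4 were called lower, with centred ratios from -2.13 to -1.99. Among all genes 0.847% were called lower. The 4 under the limit, TotB, TotF, TotZ and Victoria, had 0.561, 0.266, 0 and 0 FPKM in the V966M heterozygote and 1.02, 0.0408, 0 and 0.251 FPKM in the 51B heterozygote. TotA had 39.7 FPKM (28.3 to 51.1) in the V966M heterozygote and 147 FPKM (119 to 175) in the 51B heterozygote, a ratio of -2.13. TotC had 17.6 FPKM (11.6 to 23.5) in the V966M heterozygote and 62.9 FPKM (50.2 to 75.6) in the 51B heterozygote, a ratio of -2.05. TotM had 1.17 FPKM in the V966M heterozygote and 6.56 FPKM in the 51B heterozygote, and TotX had 1.69 FPKM in the V966M heterozygote and 7.89 FPKM in the 51B heterozygote. TotA and TotC are neighbours on 3R, where 2 called genes stood between 16696758 and 16699310, while TotM lies on 2L. Between the homozygotes TotA was called lower with a centred ratio of -1.04, and TotM, TotC and TotX were not called, at -0.88, -0.19 and 0.05.

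Turandot genes are known to respond to JAK-STAT signalling. Of 6 genes of that pathway analysed, 1 was called lower, against 0.847% of all genes. This was os, the gene of the ligand unpaired. It had 2.47 FPKM in the V966M heterozygote and 4.90 FPKM in the 51B heterozygote, a ratio of -1.03. The call of os ended without centring (-0.77), with scaling over 4 genotypes (-0.97), at a pseudocount of 5 FPKM (-0.58) and with no filter on low values (-0.98), and the mean of os is under 5 FPKM. It joined the list after its value was known. The receptor gene dome and the feedback inhibitor Socs36E were not called, with ratios of -0.27 and -0.25, and the kinase gene hop had 0.08. Stat92E had a status other than OK in both heterozygotes. The median of the 6 genes was -0.09.

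**Figure D2:**
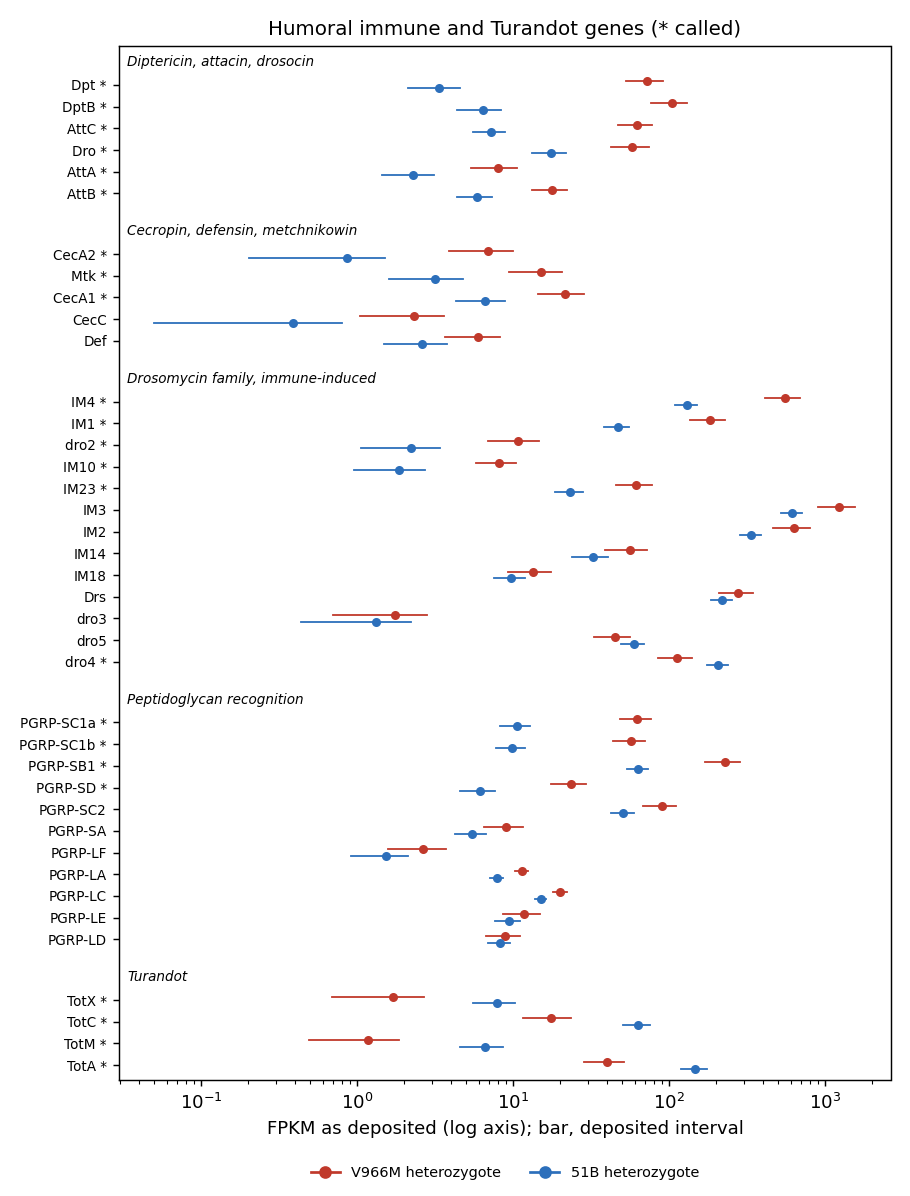
FPKM as deposited (horizontal log axis) of each analysed member of the 4 humoral immune lists and of the Turandot list, with the V966M heterozygote in red above the 51B heterozygote in blue. Points are the single values and bars the deposited intervals, without centring. An asterisk marks a called gene, and the bar of CecC in the 51B heterozygote, whose lower bound is 0, is cut short on the log axis. The diptericins and attacins and 4 of 11 recognition genes, all marked as called, stand to the right in the V966M heterozygote, and the 4 Turandot genes to the left.

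Digestive enzymes were also among the higher genes. The midgut and salivary glands of flies secrete lysozymes, which split bacterial cell walls, serine proteases of the Jonah and trypsin families, and amylases and maltases. Of 44 such genes analysed, 16 were called higher and 0 lower, with a median centred ratio of 0.78, against 1.17% of all genes called higher and 0.847% lower. Their summed level was 9158 FPKM in the V966M heterozygote and 3593 FPKM in the 51B heterozygote.

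Of 7 lysozyme genes, 6 were called higher. LysB had 527 FPKM (403 to 651) in the V966M heterozygote and 150 FPKM (127 to 172) in the 51B heterozygote, a centred ratio of 1.55. LysE had the largest ratio, 1.93, with 182 FPKM in the V966M heterozygote and 39.0 FPKM in the 51B heterozygote. LysP had 127 FPKM in the V966M heterozygote and 36.1 FPKM in the 51B heterozygote, a ratio of 1.52. The lysozyme genes are near copies of each other, 5 of the 7 share loci with other genes, and the division of reads among them is uncertain. LysX, the lowest in level, had 1.20 FPKM in the V966M heterozygote and 0.884 FPKM in the 51B heterozygote, a ratio of -0.04.

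Jonah proteases were analysed in 16 genes, of which 5 were called higher. Jon74E (3L, 17539968 to 17542227) had 432 FPKM (330 to 534) in the V966M heterozygote and 92.2 FPKM (78.3 to 106) in the 51B heterozygote, a centred ratio of 1.95. Jon99Cii and Jon99Ciii, neighbours with alike sequences, had a ratio of 1.38 each. Jon65Aiii, at 890 FPKM in the V966M heterozygote and 356 FPKM in the 51B heterozygote, had a ratio of 1.05. The 3 genes of cytological band 25B were not called and had ratios from -0.36 to 0.21. The list's median was 0.84, and without chromosome 3, which leaves 4 genes, it was -0.052.

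Of 12 trypsins, 4 were called higher. The largest ratio was that of epsilonTry, with 347 FPKM (258 to 437) in the V966M heterozygote and 69.0 FPKM (58.7 to 79.4) in the 51B heterozygote, 2.05. betaTry had 888 FPKM in the V966M heterozygote and 261 FPKM in the 51B heterozygote, a ratio of 1.5. The 4 called trypsins stand in 1 cluster on 2R (7231756 to 7241878), all share loci with other genes, and among trypsins with a locus of their own 0 of 6 were called. The amylase genes Amy-d and Amy-p, a duplicate pair, had ratios of 1.01 and 1.0, of which Amy-d was called. That call ended at a pseudocount of 0.1 FPKM and at a mean of at least 5 FPKM. Amy-p had 298 FPKM in the V966M heterozygote and 124 FPKM in the 51B heterozygote. The maltase CG8690 had 45.6 FPKM in the V966M heterozygote and 57.6 FPKM in the 51B heterozygote, a ratio of -0.60.

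Genes that mark the gut epithelium rather than its secretions were not called. The 8 genes of that list had a median centred ratio of -0.01, with a range from -0.33 to 0.43. With 2.02% of all genes called, a list of 8 genes is likely to hold no call. Myo31DF, a myosin of enterocytes, had 20.7 FPKM in the V966M heterozygote and 12.4 FPKM in the 51B heterozygote, a ratio of 0.43. cad, a transcription factor of the hindgut and posterior midgut, had 16.7 FPKM in the V966M heterozygote and 17.5 FPKM in the 51B heterozygote, a ratio of -0.33. In these whole-fly RNA samples, fewer cells of a type and less RNA per cell cannot be told apart.

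**Figure D3:**
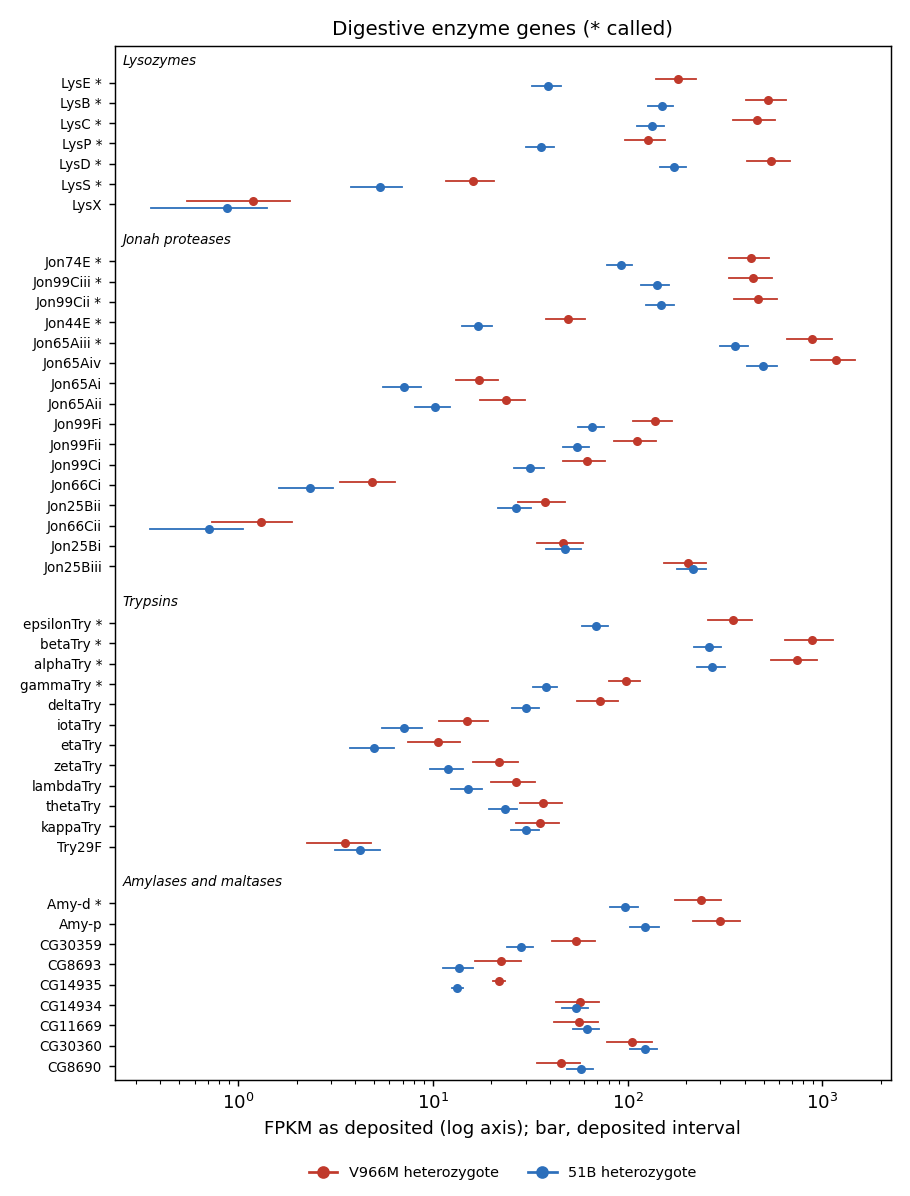
FPKM as deposited (horizontal log axis) of the lysozymes, Jonah proteases, trypsins, and amylases and maltases analysed, with the V966M heterozygote in red above the 51B heterozygote in blue. Points are the single values, bars the deposited intervals, and an asterisk marks the 16 called genes. The called genes stand to the right in the V966M heterozygote, while Jon25Bi, Jon25Biii, kappaTry and several maltases overlap.

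Among other abundant genes called higher, 3 were picked after their values were seen and stand for no group. Adh, alcohol dehydrogenase, was the most abundant called gene, with 4081 FPKM (3226 to 4937) in the V966M heterozygote and 1498 FPKM (1272 to 1724) in the 51B heterozygote, a centred ratio of 1.18. Mgstl, a microsomal glutathione transferase, had 946 FPKM in the V966M heterozygote and 326 FPKM in the 51B heterozygote, a ratio of 1.27. CG12374 had 1072 FPKM (766 to 1378) in the V966M heterozygote and 275 FPKM (224 to 325) in the 51B heterozygote, a ratio of 1.70. Of 69 cytochrome P450 genes analysed, Cyp4e1 was called higher at 1.06 and Cyp310a1 and Cyp28d2 were called lower, at -1.65 and -1.02. These counts stood near the shares of all genes, 1.17% higher and 0.847% lower, and became 0 and 0 at a pseudocount of 5 FPKM and 5 higher and 1 lower without centring.

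Several of the largest differences were in genes that the deposited table lists by a CG number. CG31816 (2L, 16542546 to 16543263) had 76.5 FPKM (58.3 to 94.7) in the V966M heterozygote and 6.09 FPKM (4.13 to 8.05) in the 51B heterozygote, a centred ratio of 3.19. CG10910 had 76.2 FPKM in the V966M heterozygote and 10.5 FPKM in the 51B heterozygote, a ratio of 2.48. CG1304 had 16.2 FPKM in the V966M heterozygote and 1.68 FPKM in the 51B heterozygote, a ratio of 2.42. All 3 were also called higher between the homozygotes, at 4.22, 3.32 and 3.08. CG17003 (X, 19895000 to 19896129), named lky in RefSeq, had 0.948 FPKM (0.535 to 1.36) in the V966M heterozygote and 11.3 FPKM (9.30 to 13.3) in the 51B heterozygote, a ratio of -2.92. CG15263 had 1.98 FPKM in the V966M heterozygote and 18 FPKM in the 51B heterozygote, a ratio of -2.93. CG13946 had 4.85 FPKM in the V966M heterozygote and 25.0 FPKM in the 51B heterozygote, a ratio of -2.42. These 3 were also called lower between the homozygotes, at -2.38, -1.20 and -2.37.

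Larval serum protein and fat body genes were split. Lsp1gamma (3L, 66439 to 69003), a subunit of the larval storage protein, had 23.4 FPKM (17.6 to 29.3) in the V966M heterozygote and 2.34 FPKM (1.73 to 2.95) in the 51B heterozygote, a centred ratio of 2.61. The other 2 subunits were not called, with ratios of -0.28 for Lsp1alpha and 0.16 for Lsp1beta. Lsp2, another larval storage protein, had 74.5 FPKM in the V966M heterozygote and 112 FPKM in the 51B heterozygote, a ratio of -0.85. CG15828, a lipid transfer apolipoprotein named Apoltp in RefSeq, was called higher at 1.20, and Rfabg, the main lipoprotein of the blood, had 0.81 and was not called. Of 11 genes in the list 2 were called, both higher, against 1.17% of all genes called higher.

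Cuticle genes held 3 calls among 54 analysed, all higher, against 1.17% of all genes called higher, with a median centred ratio of 0.15. The higher calls became 2 at a pseudocount of 5 FPKM and 9 without centring. Cpr92F had 398 FPKM (283 to 513) in the V966M heterozygote and 123 FPKM (103 to 143) in the 51B heterozygote, a ratio of 1.42. Lcp1, a larval cuticle protein, had 22.5 FPKM in the V966M heterozygote and 4.61 FPKM in the 51B heterozygote, a ratio of 1.80. Ccp84Ag had a ratio of 1.12. Among 16 heat shock genes 1 was called lower, against 0.847% of all genes. This was Hsp22, a mitochondrial small chaperone, with 81.5 FPKM (63.2 to 99.8) in the V966M heterozygote and 140 FPKM (119 to 162) in the 51B heterozygote, a ratio of -1.04. The call of Hsp22 ended without centring (-0.78), at a pseudocount of 5 FPKM (-0.92) and with no filter on low values (-0.99). Hsp22 overlaps Hsp67Bb in the table, so that it is left out where shared loci are. The small chaperone Hsp23 had -0.93 and was not called, and the Hsp70 genes, near copies of each other, ran from -0.20 to 0.01.

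Testis genes leaned to the 51B side together without any call. The 3 testis lists hold meiotic arrest regulators, spermatid tail proteins with protamines, and sperm aminopeptidases. Of 31 genes analysed, 0 were called, against 2.02% of all genes. At a pseudocount of 0.1 FPKM 2 of 11 meiotic arrest genes were called lower, where 165 of all 11094 genes were. Of the 31, 29 had a centred ratio below 0, and the median was -0.62. In the homozygotes, where 10, 13 and 7 genes of these lists were analysed, the median was the same, -0.62. There 2 genes were called lower and 0 higher, against 1.8% and 3.36% of all genes. Mst84Db, a spermatid protein, had 222 FPKM (166 to 279) in the V966M heterozygote and 355 FPKM (301 to 408) in the 51B heterozygote, a ratio of -0.93. The protamine Mst35Bb had 50.2 FPKM in the V966M heterozygote and 78.2 FPKM in the 51B heterozygote, a ratio of -0.89. The sperm aminopeptidase CG4439 had 255 FPKM in the V966M heterozygote and 373 FPKM in the 51B heterozygote, a ratio of -0.81. Among proteasome genes the lowest ratio was that of Prosbeta2R1, a testis form of a catalytic subunit, at -0.88, against a median of -0.14 over 42 genes. The summed level of the testis genes was 5956 FPKM in the V966M heterozygote and 7563 FPKM in the 51B heterozygote, and its part in the lower calls was not tested.

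Other tissue markers held few calls, but with 2.02% of all genes called, lists of these sizes are likely to hold few. No gene was called among 25 of the accessory gland, 15 of flight muscle and 7 rhodopsins, whose medians were 0.17, 0.14 and 0.31. Of 11 synaptic genes Snap25, a vesicle fusion protein, was called higher, with 35.2 FPKM in the V966M heterozygote and 13 FPKM in the 51B heterozygote, a ratio of 1.10. Of 17 female-specific and ovary genes 4 passed the limit on low values, and the yolk protein genes Yp1 and Yp2 were under 0.5 FPKM in both heterozygotes. The 90 cytosolic ribosomal protein genes and the 71 mitochondrial ones had medians of 0.13 and 0.00 with 0 called. In all, 29 of the 49 lists held no call, with medians from -0.62 to 0.31. At the share of all genes, a short list is likely to hold none.

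**Figure D4:**
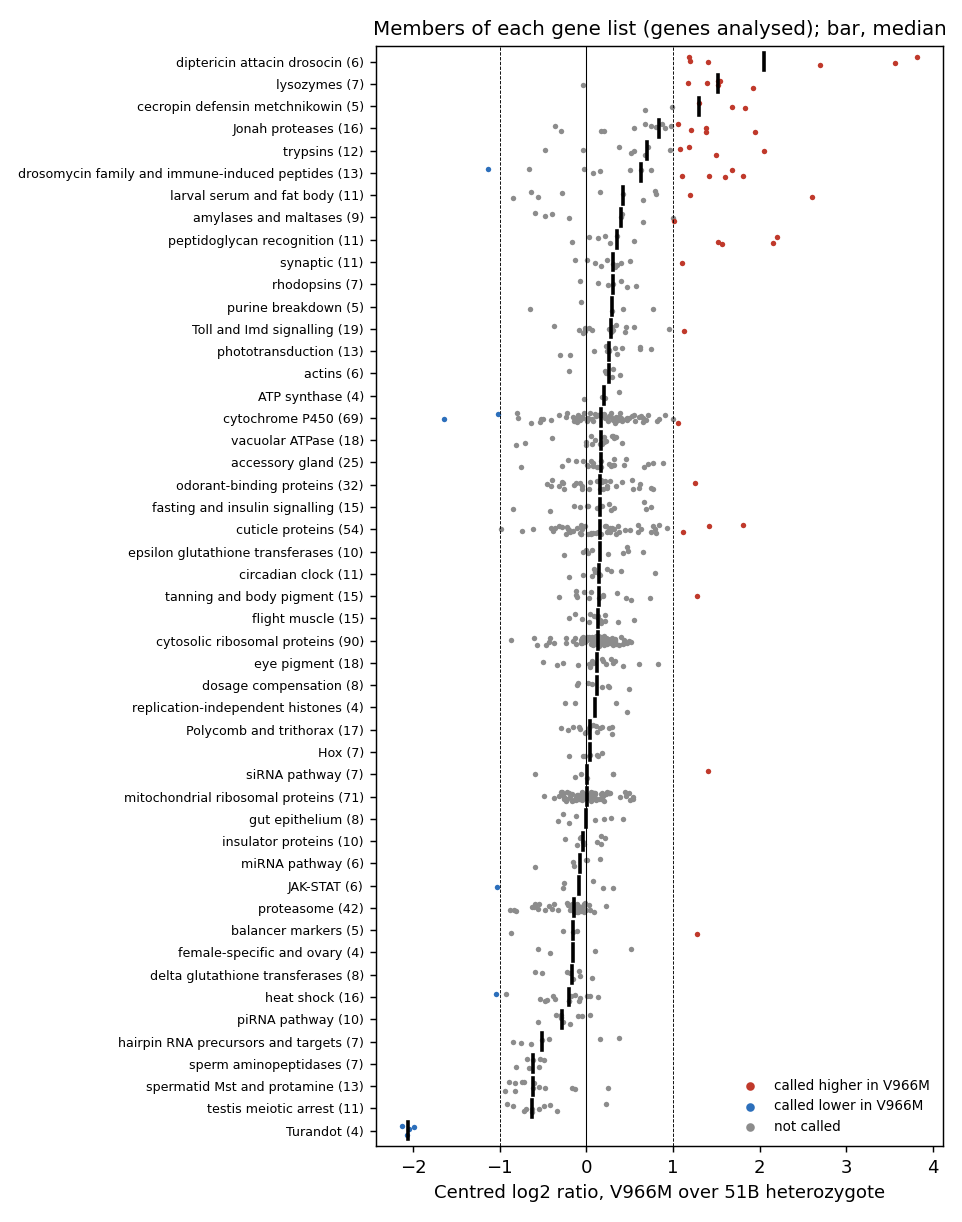
The centred log2 ratio, V966M over 51B heterozygote (horizontal axis), of every analysed member of each gene list with at least 4 analysed genes, sorted by the list's median (black bar). Red points were called higher, blue points lower and grey points not called, and dashed lines mark 2-fold. The diptericin, lysozyme and cecropin lists stand highest, at 2.05, 1.52 and 1.30, and the Turandot list lowest, at -2.06.

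The markers named in the balancers were looked at in the RNA. Both heterozygotes carry Ser on the balancer. Ser, a Notch ligand gene, had 4.33 FPKM in the V966M heterozygote and 3.94 FPKM in the 51B heterozygote, a centred ratio of -0.16. Sb, labelled on the V966M balancer alone, had 1.10 FPKM in the V966M heterozygote and 1.11 FPKM in the 51B heterozygote. The marker y+ is labelled on the 51B balancer, and y is a pigment gene of the X chromosome. The gene y was called higher in the V966M heterozygote, with 12.2 FPKM (8.84 to 15.5) against 3.53 FPKM (2.69 to 4.37) in the 51B heterozygote, a ratio of 1.28. Between homozygotes, which carry no balancer, y had 8.30 FPKM with V966M and 1.01 FPKM with 51B. The table gives y 1 locus with 12 other genes. The gene twi had 9.37 FPKM in the V966M heterozygote and 14.8 FPKM in the 51B heterozygote, a ratio of -0.87, and GFP itself has no row among the genes analysed here.

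The called genes were spread over the chromosomes. On 2L and 2R together 120 of 4325 genes (2.77%) were called, on 3L and 3R 68 of 4846 (1.40%), and on X 35 of 1798 (1.95%). On chromosome 4, 1 of 76 genes was called, and the median centred ratio was 0.38, with 68 of 76 genes above 0. The 49 genes that the table places in heterochromatin had 0 calls and a median of 0.25. The SD of the ratios over genes was 0.39 on chromosome 3, the chromosome that carries Ago2 and is balanced, and 0.44 on chromosome 2.

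Some called genes were neighbours, and how often genes in general lie this close was not computed. Called genes of 1 direction within 20000 bases of each other formed 16 clusters with 44 genes among the higher and 5 clusters with 10 genes among the lower. The largest held 7 genes on 3L (1201871 to 1232701): LysB, LysC, LysD, LysE, LysP, LysS and CG32335. Others held the diptericin pair, the attacin pair with Dro, the trypsins, and Jon44E with PGRP-SC1a and PGRP-SC1b. The called lysozymes other than LysB have the same locus in the deposited table, and so have the called trypsins. A further cluster was 7SLRNA with CR42652, whose values are identical, 417 FPKM in the V966M heterozygote and 143 FPKM in the 51B heterozygote.

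Called lower and under 0.5 FPKM in the V966M heterozygote were 7 genes, of which 4 shared their locus with a gene that was not called and had more FPKM in the V966M heterozygote. CG42529 was listed at 0 FPKM in the V966M heterozygote and had 46.4 FPKM in the 51B heterozygote. CG14101, at the same locus (3L, 19722024 to 19723322), had 66.9 FPKM in the V966M heterozygote and 40.2 FPKM in the 51B heterozygote. Summed over the locus the values were 66.9 FPKM in the V966M heterozygote and 86.6 FPKM in the 51B heterozygote. CG32857 had 0.0180 FPKM in the V966M heterozygote and 14.7 FPKM in the 51B heterozygote, whereas the 3 genes of its locus (X, 21480382 to 21482577) summed to 37.9 FPKM in the V966M heterozygote and 37.1 FPKM in the 51B heterozygote. CG33498 and inaF-A likewise share loci with other genes, and their loci summed to 42.3 and 43.2 FPKM in the V966M heterozygote and to 28.1 and 29.0 FPKM in the 51B heterozygote. None of these 4 loci was near absent in the V966M heterozygote when its genes were summed. The other 3 have loci of their own. CG40172, a long noncoding RNA in RefSeq, had 0.295 FPKM in the V966M heterozygote and 2.74 FPKM in the 51B heterozygote. CG15550 had 0.337 FPKM in the V966M heterozygote and 2.55 FPKM in the 51B heterozygote. obst-I, a chitin-binding protein gene, had 0.405 FPKM in the V966M heterozygote and 1.86 FPKM in the 51B heterozygote. CG11865, Muc4B and Obp58c were called higher and stood under 0.5 FPKM in the 51B heterozygote. In the V966M heterozygote they had 3.32, 4.63 and 2.20 FPKM, against 0.216, 0.454 and 0.118 FPKM in the 51B heterozygote.

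The same comparison between the homozygotes gave 368 genes called higher with V966M (3.36% of 10953 analysed) and 197 called lower (1.8%), together 5.16%. Of the 130 genes called higher between the heterozygotes, 127 were analysed in the homozygotes, where 94 had the same call, 31 had none and 2 had the opposite one. The shared calls were 72.3% of the heterozygote list and 25.5% of the homozygote list. Of the 94 genes called lower, 87 were analysed in the homozygotes, where 39 had the same call and 48 had none. These made 41.5% of the heterozygote list and 19.8% of the homozygote list. The median before centring was -0.12 between the homozygotes, so genes with low values are drawn above 0 there, to the higher side. Among genes with at least 5 FPKM the median interval half-width was 16.4% in the V966M homozygote and 29.2% in the 51B homozygote. How far the sharing of calls depends on the measure and on this precision was not tested. Among genes analysed in both comparisons, 3.4% were called higher and 1.79% lower between the homozygotes. The sign was the same for 116 of 127 higher and 85 of 87 lower genes, and the share over all genes was not computed. The median centred ratio of the higher genes was 1.34 between heterozygotes and 1.61 between homozygotes, and that of the lower genes -1.13 between heterozygotes and -0.86 between homozygotes. Over all 10737 genes Pearson's r was 0.65 and Spearman's rho 0.63, a description across genes, which are not independent.

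Values of the main gene groups between the homozygotes were as follows. Of the 35 humoral immune genes, 22 were called higher and 2 lower between the homozygotes, where 3.36% of all genes were called higher and 1.8% lower. Dpt had 21.0 FPKM in the V966M homozygote and 2.27 FPKM in the 51B homozygote, a centred ratio of 2.87. PGRP-SB1 had 150.3 FPKM in the V966M homozygote and 15.2 FPKM in the 51B homozygote, a ratio of 3.34. Of the Jonah proteases 12 were called higher between the homozygotes, and Jon74E had 297 FPKM in the V966M homozygote and 10.8 FPKM in the 51B homozygote, a ratio of 4.78. Most lysozymes were not called between the homozygotes. There, 1 lysozyme gene, LysP, was called higher and 1, LysD, lower, and the list's median was -0.41. LysB had 288 FPKM in the V966M homozygote and 459 FPKM in the 51B homozygote, a ratio of -0.55.

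**Figure D5:**
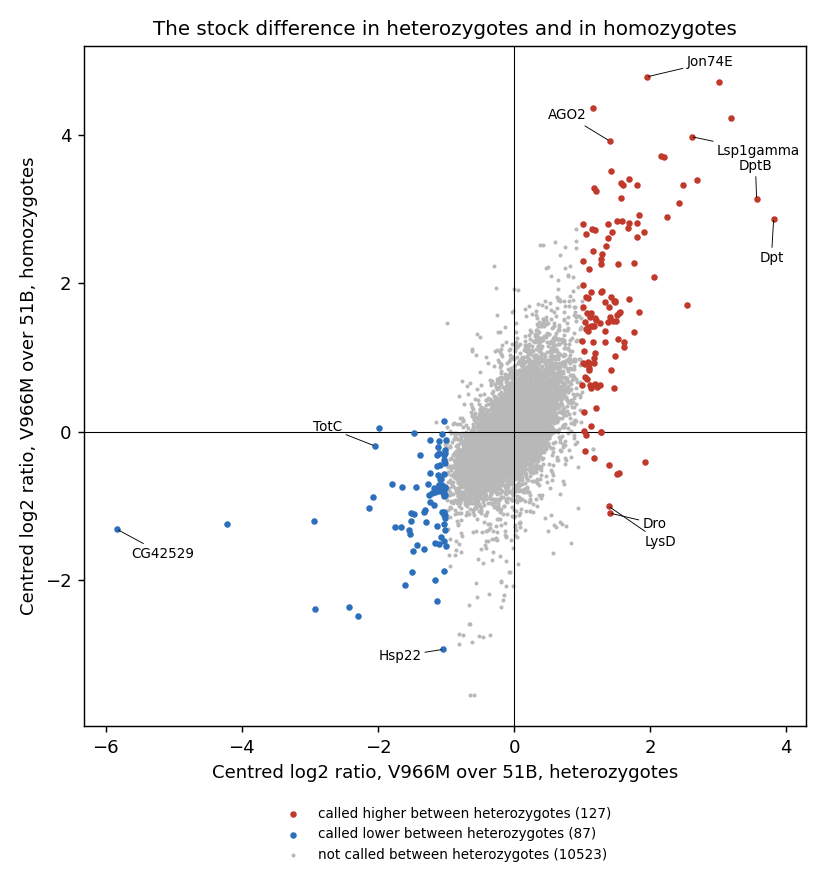
The centred log2 ratio, V966M over 51B, of each of 10737 genes between heterozygotes (horizontal axis) and between homozygotes (vertical axis). Red points were called higher and blue points lower between the heterozygotes. Of the 127 red points 116 lie above 0 on the vertical axis and of the 87 blue points 85 below it. Dro and LysD, marked, are the 2 red points with the opposite call between homozygotes.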

How the data were processed

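The authors deposited 1 table of FPKM values, with interval bounds and a status for each of 4 genotypes. Reads were processed with TopHat and Cufflinks on build dm3 of the genome, per the submitters' processing notes. For versions, annotation and strand: not given in the sources used here. Duplicates are stated for the design, but the table holds 1 value per genotype, so every genotype is n = 1, and whether that value pools 2 libraries is not stated. The intervals were symmetric around the value, within a relative tolerance of 0.001, in 25494 of 25494 heterozygote values with a lower bound above 0. Because FPKM carry no counts, the depth is not known, and neither counting intervals nor detection limits could be given. The deposited interval width stood for precision. Coordinates are the table's dm3 loci with the start counted from 1.

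From there, with Python 3.11.15, pandas 2.3.3 and numpy 2.4.6, genes were filtered, log2 ratios with a pseudocount of 1 FPKM were centred and calls were made as the report states. The call rule was run on simulated data, with noise drawn from the deposited interval widths and a larger shift between genotypes than in the data. That run checks the code of the rule and cannot show how far replicates would differ. An exact 0 can be a failed estimate, so no fold is given against it. Of 935 names in the gene lists 9 were not matched to the table and 29 were matched through RefSeq synonyms (assembly Release 6, names only). Alternatives were no centring, scaling over 4 genotypes, other pseudocounts, filters and folds, intervals ignored, and subsets by status, locus or chromosome.

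The comparison, the lists and the rule for named genes were chosen with earlier results of these data known. The lists were revised after values had been seen, and os entered the JAK-STAT list after its value was known. The rule named AGO2, the 12 called genes with the largest ratio in each direction at a locus of their own, in each list up to 4 genes of largest absolute ratio, all analysed members of the siRNA, hairpin, diptericin, Turandot and balancer lists, and up to 10 called genes under 0.5 FPKM in a heterozygote. Genes named outside it, chosen after their values were seen, were Adh, Mgstl, CG12374, CG32335, dro4, Drs, Def, AttD, PGRP-SA, PGRP-SC2, PGRP-LB, PGRP-LC, PGRP-LE, hop, Stat92E, Jon25Bi, Jon25Biii, Jon65Aiii, kappaTry, LysD, LysS, LysX, Lsp1alpha, Lsp1beta, Yp1, Yp2, the genes on either side of the limit on low values, and the locus partners CG7739 and CG14101.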

Additional observations from a re-analysis of the deposited data

Results flagged for a closer look

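Of the genes called between the heterozygotes, 2 were called in the opposite direction between the homozygotes. Dro, the drosocin gene, had a centred log2 ratio, V966M over 51B, of 1.41 between the heterozygotes and of -1.10 between the homozygotes. Its level was 58.1 FPKM in the V966M heterozygote and 17.5 FPKM in the 51B heterozygote. Among homozygotes it was 27.5 FPKM in the V966M homozygote and 65.2 FPKM in the 51B homozygote. LysD, a lysozyme gene, had a centred ratio of 1.39 between the heterozygotes and of -1.01 between the homozygotes. Its level was 547 FPKM in the V966M heterozygote and 173 FPKM in the 51B heterozygote. Among homozygotes it was 276 FPKM in the V966M homozygote and 602 FPKM in the 51B homozygote. With 1 value per genotype the difference between the 2 comparisons was not tested. LysD shares its locus with near copies of itself, and Dro has a locus of its own.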

How the results depend on the processing

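Each setting was changed alone. Without centring, 300 genes were higher and 35 lower in the V966M heterozygote; scaling over 4 genotypes gave 137 and 78. A pseudocount of 5 FPKM gave 76 higher and 17 lower, and one of 0.1 FPKM gave 165 lower. A mean of at least 5 FPKM gave 58 lower. A fold of at least 4 left 13 higher, 10 lower and 15 calls shared with the homozygotes, against 133. Medians of gene lists moved as follows: hairpin precursors and targets to 0.15 outside chromosome 3, diptericins with attacins and drosocin to 1.46 with no filter on low values, cecropins with defensin and metchnikowin to 1.91 at a pseudocount of 0.1 FPKM, Turandot genes to -1.44 at 5 FPKM and -1.26 with no filter, lysozymes to 0.74 among genes with a locus of their own, and Jonah proteases to -0.052 outside chromosome 3. The last 2 rest on 2 and 4 genes. Smaller moves of list medians are not given, and some changed sign. The sign changed in 9 of 49 list medians without centring, in 6 of 49 at a mean of at least 5 FPKM and in 6 of 46 outside chromosome 3. No named gene's called value changed sign, 71 values of named genes moved by more than the combined half-widths of their deposited intervals and 2163 did not. The 2163 include the settings with intervals ignored and with a fold of at least 4. Those settings change only the call and leave every ratio as it was, so the 2163 overstate how stable the ratios were. The causes were not tested. No paired analysis was possible because each genotype has 1 value, and for the same reason no replicate could be left out. Depth and the interval level are unknown, so precision at low levels cannot be set.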
